A study of Mus musculus with 6 samples.

Results

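The mechanistic target of rapamycin complex 1 (mTORC1) genes described here are Mtor, Rptor, Rheb, Tsc1, Tsc2, Akt1s1, Deptor, Rps6kb1, Rps6kb2 and Eif4ebp1. They were chosen by name as the core of the pathway, with earlier results of these data known. Their GENCODE mouse symbols were matched to the Ensembl gene identifiers of the deposited tables. All 10 were found among 53947 genes, and all 10 passed the filter on low counts that left 13576 genes for testing. Total RNA was sequenced from quadriceps muscle of mice aged 12 weeks in 3 wild-type (WT) and 3 HSA-LR libraries, after removal of ribosomal RNA, with a stranded kit. The comparison asks which muscle RNAs differ in level between mice with and without expanded CUG repeats. WT mice are labelled only by that genotype. HSA-LR mice (HSALR in the labels) carried a transgene made from the human skeletal actin gene, expressed in skeletal muscle, whose CTG repeat is about 220 units long, and model myotonic dystrophy type 1. The labels give neither strain nor litter, so a difference in genetic background cannot be told apart from an effect of the repeats. The sources do not say whether the 3 samples of a group were 3 animals, and p-values therefore reflect sample-to-sample spread, which may be technical.

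mTORC1 is a protein kinase complex on the lysosome surface that promotes protein synthesis and restrains autophagy when growth factors and amino acids are at hand. Its kinase subunit mTOR is shared with mTORC2, while Raptor (Rptor) brings substrates to mTORC1 alone, and the small GTPase Rheb switches the kinase on. The TSC1-TSC2 complex turns Rheb off, PRAS40 (Akt1s1) and DEPTOR bind and inhibit the complex, and the S6 kinases (Rps6kb1, Rps6kb2) and the translation repressor 4E-BP1 (Eif4ebp1) are phosphorylated by it. In skeletal muscle the pathway links load, insulin and nutrients to fibre size. The measurements below are RNA levels and give neither protein amounts nor phosphorylation, which set the activity of the pathway.

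The miRNAs miR-99 and miR-100 are known to act on Mtor RNA, and their mature sequences (RefSeq) are shown because they share a seed for which Mtor alone among the 10 genes had a match. Capitals mark the seed, bases 2 to 8.
mmu-miR-99a-5p: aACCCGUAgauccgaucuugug
mmu-miR-99b-5p: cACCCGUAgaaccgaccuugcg
mmu-miR-100-5p: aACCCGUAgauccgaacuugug
The 3′ UTR of Mtor (GENCODE M39, GRCm39, the annotated canonical transcript) was 823 bases long and held the reverse complement of the seed, TACGGGT, starting at its base 289. The whole stretch printed below, with the motif in capitals, lies at chr4:148641592-148641613 on the plus strand.
Mtor 3′ UTR site: gggtaactgagaaaTACGGGTt
This motif was found in 186 of 12182 3′ UTRs (1.53%), searched on the transcript strand only. The match is a description of the sequence, and the level of these miRNAs was not analysed here.

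Across the 10 genes, 3 of the 4 inhibitors (Tsc1, Tsc2 and Deptor) and the kinase Mtor were lower in HSA-LR. The inhibitor Akt1s1 and the substrates were not called in either direction. Calls also varied with transcript length, as given below, and the part of length in this split was not tested. Of the 10, 4 were called lower and 0 higher (edgeR's quasi-likelihood test, Benjamini-Hochberg adjustment over all 13576 genes, adjusted p under 0.05). Among all genes tested 11.8% were called, 7.48% lower and 4.28% higher. As the 10 genes were chosen with earlier results known, the values over all genes stand beside theirs as a description only. Rptor had an adjusted p of 0.0903 and the other 5 genes lay between 0.163 and 0.517. The median log2 fold change (HSA-LR over WT) of the 10 genes was -0.45, against 0.04 over all genes tested, and 8 of the 10 were negative. The 3 HSA-LR values lay below the 3 WT values for 5 genes and above them for 1, against 20.0% lower, 17.8% higher and 37.8% in either direction among all genes tested. Levels are in CPM (the count of a gene relative to a TMM-adjusted library total), means are given ± SD (n = 3), and log2 fold changes carry their SE.

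The libraries held 14048603 to 15023710 counts in WT and 11468959 to 13220792 in HSA-LR, and the smallest count of any of the 10 genes was 105 (Rps6kb2 in HSA-LR replicate 1), far above a floor of 3 counts. 7SL and 7SK RNA, abundant non-coding RNAs, took 14.1% to 15.5% of the counts in WT and 18.8% to 43.9% in HSA-LR, with HSA-LR replicate 1 apart from the rest. Fibre markers (10 genes, 0 called) summed to 127866 to 141811 CPM in WT and 72371 to 125946 CPM in HSA-LR, and were abundant in every library. Macrophage and leukocyte markers summed to 98.5 to 121 CPM in WT and 148 to 472 CPM in HSA-LR, with 4 of 6 called higher, and fibroblast markers to 1220 to 1355 and 1549 to 4788 CPM, with 1 of 5 called higher. Markers of adipocytes (75 to 513 against 224 to 1617 CPM), endothelium (128 to 152 against 124 to 177), satellite cells (1.84 to 2.38 against 2.99 to 4.95), Schwann cells (9.0 to 15.8 against 12.3 to 19.0) and red blood cells (355 to 601 against 389 to 2046) had 0 genes called, though only 1 of 3 satellite cell and 3 of 4 Schwann cell markers were tested, and 0 markers of any list were at 0 in every library. The part of these shifts in the results was not tested, and in bulk tissue fewer cells of a type and less RNA per cell cannot be told apart.

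Mtor (ENSMUSG00000028991, chr4:148533015-148642141, plus strand, GRCm39 and GENCODE M39 as for all genes below), the kinase, stood at 58.5, 60.5 and 62.3 CPM in WT replicates 1 to 3 and at 40.5, 44.6 and 47.9 CPM in HSA-LR replicates 1 to 3. The WT values spanned 3.82 CPM, and every HSA-LR value was below them. Mtor fell by 26.6%, at -0.45 ± 0.12 on the log2 scale (edgeR adjusted p 0.0477). This call was near the threshold and held in 4 of 19 other ways of processing the data (adjusted p 0.0256 to 0.277).

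Rptor (ENSMUSG00000025583, chr11:119493731-119790402, plus strand), the substrate-binding subunit, stood at 30.8, 36.8 and 38.1 CPM in WT and 20.6, 27.3 and 28.8 CPM in HSA-LR. Here too the groups did not overlap, but the gap between the highest HSA-LR and the lowest WT value was only 1.96 CPM. Its log2 fold change of -0.46 ± 0.16 was as large as that of Mtor and did not pass the test (edgeR adjusted p 0.0903). Rheb (ENSMUSG00000028945, chr5:25007821-25047622, minus strand), the GTPase that activates the complex, had 46.3, 46.2 and 43.6 CPM in WT and 34.6, 49.9 and 37.7 CPM in HSA-LR. HSA-LR replicate 2 was the highest of all 6 libraries and replicate 1 the lowest, so the groups overlapped (log2 fold change -0.16 ± 0.16, edgeR adjusted p 0.517). The sign of the Rheb value turned with library sizes that leave out mitochondrial and top genes and when the share of 7SL and 7SK was a covariate.

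**Figure D1:**
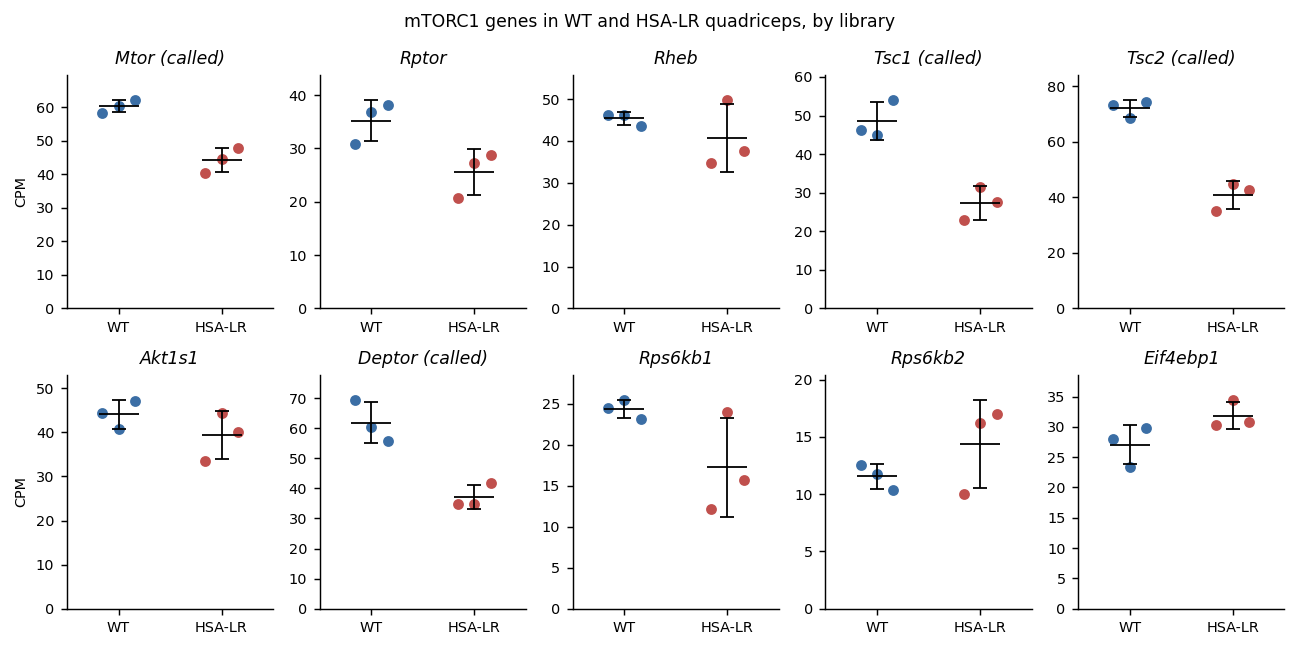
Each panel shows 1 of the 10 mTORC1 genes, with the level in CPM on a linear axis from 0 for the 3 WT and the 3 HSA-LR libraries (points, replicates 1 to 3 from left to right) and their mean ± SD (black). The 4 genes called lower are Mtor, Tsc1, Tsc2 and Deptor, and Rps6kb1 is spread between 12.2 and 24.0 CPM within HSA-LR.

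Tsc1 and Tsc2, whose products form the complex that inactivates Rheb, had the largest falls of the 10 genes and nearly the same log2 fold change. Tsc1 (ENSMUSG00000026812, chr2:28531061-28581179, plus strand) stood at 46.3, 45.0 and 54.1 CPM in WT and 22.8, 31.5 and 27.6 CPM in HSA-LR. The highest HSA-LR value was 31.5 CPM and the lowest WT value 45.0 CPM. The log2 fold change was -0.83 ± 0.15 (edgeR adjusted p 0.0148), so Tsc1 fell by 43.6%. Tsc2 (ENSMUSG00000002496, chr17:24814783-24852192, minus strand) stood at 73.4, 68.6 and 74.4 CPM in WT and 35.2, 44.9 and 42.6 CPM in HSA-LR. The highest HSA-LR library was 23.8 CPM below the lowest WT library, and the log2 fold change was -0.82 ± 0.14 (edgeR adjusted p 0.0101), so Tsc2 fell by 43.3%. Its counts were not whole in any library, so some of its reads were divided with other genes, and it shares 700 bases with Pkd1 and 546 with Nthl1 on the opposite strand. How the counting treated strand was not stated.

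Deptor (ENSMUSG00000022419, chr15:54975710-55122667, plus strand), an inhibitor that binds mTOR in both complexes, had 69.4, 60.5 and 55.8 CPM in WT and 34.8, 34.8 and 41.8 CPM in HSA-LR. The groups lay apart, with HSA-LR replicate 3 the nearest to WT. Deptor fell by 39.9%, at -0.74 ± 0.14 on the log2 scale (edgeR adjusted p 0.0165). Akt1s1 (ENSMUSG00000011096, chr7:44498415-44504908, plus strand), the inhibitor that Akt phosphorylates, differed from the other inhibitors in its values: 44.5, 40.7 and 47.1 CPM in WT and 33.5, 44.3 and 40.2 CPM in HSA-LR. The groups overlapped and the log2 fold change of -0.16 ± 0.14 did not pass the test (edgeR adjusted p 0.450). Its sign turned under the same 2 settings as that of Rheb. Thus 3 of the 4 inhibitors were called lower, beside 7.48% of all genes tested. Their mean transcripts were longer (3386 to 6233 bases) than that of Akt1s1 (1455 bases), and calls varied with length, as given below. The part of length in this split was not tested.

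No call among the 10 genes held in every leave-one-out fit. Calls among all genes tested moved as well, from 1597 in the main fit. They fell to between 166 and 217 when any WT library or HSA-LR replicate 3 was dropped. Dropping HSA-LR replicate 1 or 2 raised them to 2003 or 3294. The loss of calls was therefore not particular to the 10 genes. Without WT replicate 1, 2 or 3 or without HSA-LR replicate 3, 0 of the 10 were called, with adjusted p of 0.0549 to 0.171 (edgeR) for the 4 genes and log2 fold changes of -0.42 to -0.51 for Mtor, -0.73 to -0.88 for Tsc1, -0.79 to -0.86 for Tsc2 and -0.64 to -0.83 for Deptor. Without HSA-LR replicate 1, the library with the highest 7SL and 7SK share, Tsc1 (-0.70, adjusted p 0.00857), Tsc2 (-0.71, 0.00461) and Deptor (-0.68, 0.0125) were called by edgeR, and Mtor (-0.38) had an adjusted p of 0.0563. In that fit Rps6kb2 was called higher (0.53, edgeR adjusted p 0.0412). Without HSA-LR replicate 2 the 4 genes were called and Rps6kb1 was called lower (-0.81, edgeR adjusted p 0.0109). When the share of 7SL and 7SK was a covariate, Tsc2 (-0.63, adjusted p 0.0237) and Deptor (-0.67, 0.0430) were called lower by edgeR, Tsc1 (-0.60) had 0.0502 and Mtor (-0.35) 0.172, and Rps6kb2 was called higher (0.73, edgeR adjusted p 0.0469). This share did not overlap between groups (14.1% to 15.5% in WT, 18.8% to 43.9% in HSA-LR), so the covariate cannot be fully told apart from genotype. With limma on log2(TPM + 0.1) or log2(TPM + 1), or with an effective length offset in edgeR, Tsc1 alone was called (adjusted p 0.0464, 0.0247 and 0.0465).

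The promoters of Tsc1 and Tsc2 are shown because the RNAs of this pair fell by nearly the same share (RefSeq, GRCm38.p6, 250 bases before to 50 after the start, written on the gene's strand, with CpG in capitals).
Tsc1 promoter, chr2:28640983-28641282, plus strand: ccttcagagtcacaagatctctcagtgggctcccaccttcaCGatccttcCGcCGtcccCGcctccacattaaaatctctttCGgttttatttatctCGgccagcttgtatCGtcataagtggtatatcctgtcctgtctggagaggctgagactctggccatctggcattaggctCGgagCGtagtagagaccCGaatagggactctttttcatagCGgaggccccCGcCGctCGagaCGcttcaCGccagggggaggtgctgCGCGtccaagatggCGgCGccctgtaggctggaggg
Tsc2 promoter, chr17:24632578-24632877, minus strand: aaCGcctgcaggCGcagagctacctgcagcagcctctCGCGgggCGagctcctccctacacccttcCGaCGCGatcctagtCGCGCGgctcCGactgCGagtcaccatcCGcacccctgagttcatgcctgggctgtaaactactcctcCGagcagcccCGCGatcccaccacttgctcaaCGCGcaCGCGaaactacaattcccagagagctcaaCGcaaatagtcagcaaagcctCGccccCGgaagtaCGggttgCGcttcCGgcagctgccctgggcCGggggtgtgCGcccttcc
Tsc1 held 20 CpG and Tsc2 29, against a median of 7 over 32851 promoters of the same length, of which 73.5% and 87.1% held fewer. Counts above the median were not particular to this pair, with 47 in Rheb, 27 in Akt1s1, 21 in Mtor, 19 in Rps6kb1 and 13 in Rptor. The table held promoters for 7 of the 10 genes. The E-box CACGTG, searched on both strands, was found in Rheb alone of these 7 and in 7.15% of all promoters. CCAAT was found in Mtor alone (37.4% of all promoters), GGGCGG in Akt1s1, Mtor and Rheb (35.7%) and TATAAA in 0 of them (13.6%). These matches describe the letters of the windows and are neither sites nor causes.

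Among the substrates, Rps6kb1 (ENSMUSG00000020516, chr11:86360804-86435982, minus strand), which encodes S6 kinase 1, had 24.5, 25.4 and 23.2 CPM in WT and 12.2, 24.0 and 15.7 CPM in HSA-LR. Its 3 WT values were close together, while HSA-LR replicate 2 lay within the WT range and the other two were lower, so the log2 fold change of -0.49 ± 0.22 did not pass the test (edgeR adjusted p 0.163). Rps6kb2 (ENSMUSG00000024830, chr19:4203990-4213400, minus strand), the gene of S6 kinase 2, had 12.6, 11.7 and 10.4 CPM in WT and 9.99, 16.2 and 17.0 CPM in HSA-LR. Here HSA-LR replicate 1 was below all WT libraries and the other two above them (0.32 ± 0.21, edgeR adjusted p 0.327). Eif4ebp1 (ENSMUSG00000031490, chr8:27750350-27805206, plus strand) had 28.1, 23.4 and 29.7 CPM in WT and 30.3, 34.4 and 30.8 CPM in HSA-LR. It was the only one of the 10 with all HSA-LR values above all WT values, with a gap of 0.604 CPM, and the log2 fold change of 0.23 ± 0.14 did not pass the test (edgeR adjusted p 0.267). On log2(TPM + pseudocount) the signs of Rps6kb2 and Eif4ebp1 turned, a scale on which the median of all genes moved by -0.50 (pseudocount 0.1) and -0.32 (pseudocount 1). Rps6kb1 shares 14526 bases with Rnft1 and Rps6kb2 shares 2761 with Ptprcap, both on the opposite strand.

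Seed matches to the miR-23, miR-27 and miR-24 families, named in the study of these muscles, were also counted in the 3′ UTRs. The reverse complement of the miR-24 seed, CTGAGCC, was in Deptor, Eif4ebp1, Rps6kb2, Rptor and Tsc1, and in 21.7% of all 3′ UTRs searched. That of miR-27, ACTGTGA, was in Deptor, Rps6kb1 and Tsc1 (19.4% of all), and that of miR-23, AATGTGA, in Deptor alone (18.3%). ACATTCC (miR-206) and GGACCAA (miR-133) were in 0 of the 10 genes, against 12.6% and 9.88% of all. A longer 3′ UTR has more places for a match, and the shares over all 3′ UTRs were not adjusted for length. The 3′ UTR was 6867 bases long in Deptor, 3994 in Tsc1, 3854 in Rps6kb1 and 3019 in Rps6kb2. It was 1925 in Rptor, 1563 in Eif4ebp1, and 749 to 841 in Akt1s1, Tsc2, Mtor and Rheb. For miR-24 and miR-27, genes with a match and genes without it were found both among the 4 that fell and among the others, and no relation was tested.

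Levels can be ranked between genes only per length, for which TPM (counts per length at a fixed sum per library, as deposited) was used. In WT, Akt1s1 was highest at 19.7 ± 1.3 TPM, followed by Rheb (16.0 ± 1.16), Eif4ebp1 (14.3 ± 1.78) and Tsc2 (12.7 ± 0.378). Below them came Deptor (7.31 ± 0.769), Rps6kb2 (6.61 ± 0.765), Rps6kb1 (5.02 ± 0.885), Tsc1 (4.88 ± 0.319), Mtor (4.76 ± 0.498) and Rptor (4.13 ± 0.435). Between neighbours in this order only Akt1s1 and Rheb, and Tsc2 and Deptor, had ranges that did not overlap. In HSA-LR the order was Akt1s1 (14.1 ± 6.39), Eif4ebp1 (13.2 ± 5.13), Rheb (10.8 ± 5.21), Tsc2 (6.16 ± 3.12), Rps6kb2 (5.91 ± 2.80), Deptor (3.69 ± 1.07), Rptor (2.74 ± 1.84), Mtor (2.70 ± 1.15), Rps6kb1 (2.41 ± 1.21) and Tsc1 (2.04 ± 1.09), and all neighbours overlapped. HSA-LR replicate 1 was the lowest library in TPM for all 10 genes, with 0.85 TPM of Tsc1 and 1.39 TPM of Mtor, and in it 7SL and 7SK took 83.9% of the TPM, against 63.7% to 66.1% in WT.

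Ratios of 2 TPM values within a library do not depend on library scaling but do rest on the length estimated for each gene. They can also carry the trend of log2 fold changes with transcript length that is described below. In every ratio without overlap in TPM, the gene with the longer mean transcript was the relatively lower one in HSA-LR. The part of length in these ratios was not tested. The 9 ratios were compared by a two-sided exact permutation test over samples, whose smallest possible p with 3 against 3 libraries is 0.1. The ratio of Tsc2 to Rheb, the inhibitor to its target, was 0.774, 0.731 and 0.889 in WT and 0.490, 0.546 and 0.649 in HSA-LR. All HSA-LR ratios were below all WT ratios (log2 difference -0.51, exact permutation p = 0.1, adjusted over the 9 ratios 0.18). Rps6kb1 relative to Rps6kb2 was 0.560, 1.01 and 0.762 in WT and 0.381, 0.476 and 0.357 in HSA-LR. This ratio was also lower without overlap (log2 difference -0.91, exact permutation p = 0.1, adjusted 0.18), with the wider spread in WT. Tsc1 relative to Tsc2 went from 0.384 ± 0.0212 to 0.327 ± 0.0167 in TPM (exact permutation p = 0.1, n = 3, adjusted 0.18), but the log2 difference of -0.23 became -0.01 in the ratio of counts, where the exact permutation p was 0.8.

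Akt1s1 relative to Mtor was 4.17 ± 0.640 in WT and 5.17 ± 0.250 in HSA-LR, without overlap (n = 3, exact permutation p = 0.1, adjusted 0.18). Rptor relative to Mtor was 0.865, 0.861 and 0.879 in WT and 0.683, 0.824 and 1.31 in HSA-LR, overlapping between groups (exact permutation p = 1). The spread in HSA-LR was seen in TPM and not in counts, whose ratio was 0.526, 0.607 and 0.612 in WT and 0.509, 0.613 and 0.602 in HSA-LR (exact permutation p = 0.7). Deptor relative to Mtor was 1.55 ± 0.238 in WT and 1.45 ± 0.283 in HSA-LR, with overlap (log2 difference -0.11, exact permutation p = 0.5, n = 3). In counts the same ratio was 1.19, 0.999 and 0.895 in WT and 0.859, 0.779 and 0.874 in HSA-LR, without overlap (log2 difference -0.29, exact permutation p = 0.1, adjusted 0.18). Rptor relative to Rictor, the subunit that defines mTORC2, overlapped in TPM (1.47 ± 0.383 and 2.06 ± 1.09, exact permutation p = 0.6, n = 3) and in counts (exact permutation p = 0.5).

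The largest shift among the 9 ratios was between the 4E-BP paralogs. Eif4ebp1 relative to Eif4ebp2 was 0.741, 0.735 and 0.878 in WT and 3.96, 3.09 and 2.83 in HSA-LR (log2 difference 2.06, exact permutation p = 0.1, adjusted 0.18). In TPM, Eif4ebp2 was thus the higher of the pair in every WT library and Eif4ebp1 in every HSA-LR library. In counts the ratio was 0.150, 0.157 and 0.168 in WT and 0.727, 0.568 and 0.540 in HSA-LR (log2 difference 1.94, exact permutation p = 0.1, adjusted 0.18). Eif4ebp2 thus had more counts than Eif4ebp1 in every library, and the change of order rests on the lengths. Eif4ebp1 relative to Eif4e, the cap-binding protein it represses, was 0.401 ± 0.0403 in WT and 0.400 ± 0.0659 in HSA-LR (n = 3, exact permutation p = 0.9).

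**Figure D2:**
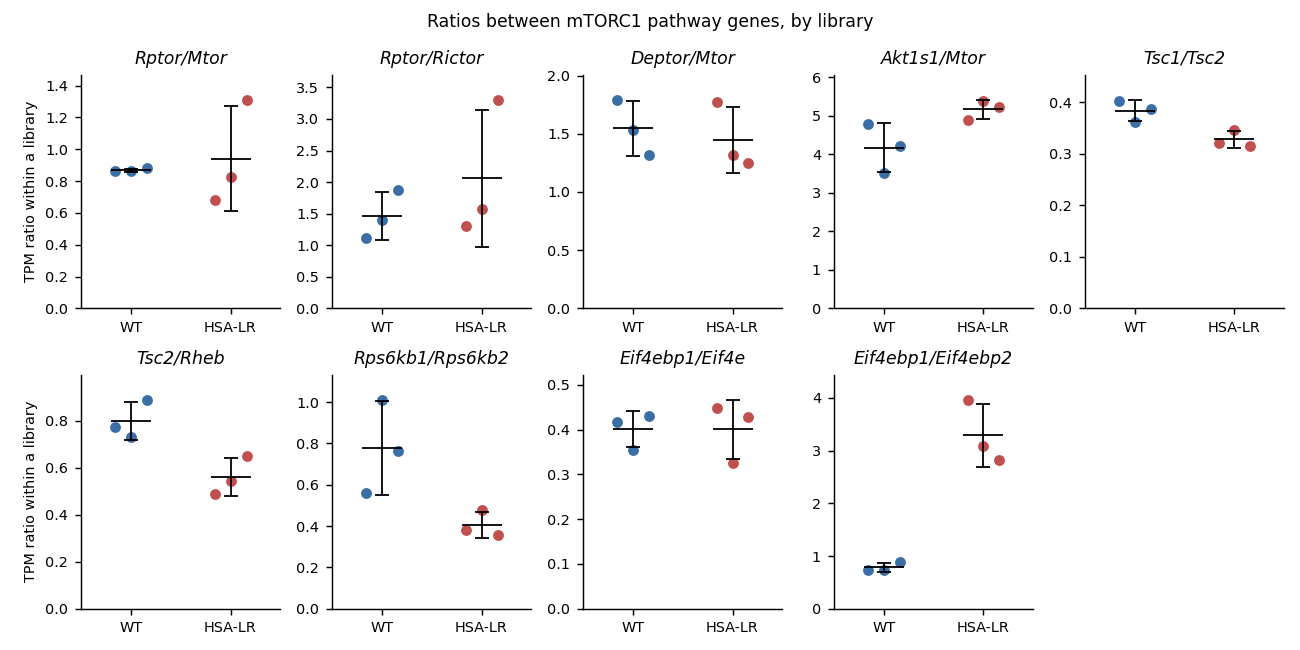
Each panel shows a ratio of 2 TPM values in the same library, on a linear axis from 0, for the 3 WT and 3 HSA-LR libraries (points) with mean ± SD (black). Eif4ebp1/Eif4ebp2 is at most 0.878 in WT and at least 2.83 in HSA-LR, while Eif4ebp1/Eif4e and Rptor/Mtor overlap.

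The rest of the pathway was taken from a list of 61 genes arranged by role, also chosen with earlier results known. From this list 60 genes were matched and 57 tested. Of these 9 were called lower and 0 higher (15.8%), beside 11.8% of all genes tested, the median log2 fold change was -0.10, and 35 were negative. Groups did not overlap for 18 lower and 9 higher genes of the 57, where 20.0% of all genes tested were lower and 17.8% higher without overlap. The calls lay mostly among substrates and effectors, where 6 of 14 were called lower, with 1 of 7 among other subunits and chaperones, 1 of 7 among growth factor and stress inputs and 1 of 16 among the GATOR and KICSTOR complexes and amino acid sensors. The called genes had long transcripts, and their length classes are given below. None of the 13 genes grouped with the Rag GTPases and Ragulator, which bring mTORC1 to the lysosome, was called by edgeR. Their log2 fold changes ran from -0.46 (Fnip1) to 0.29 (Lamtor4). This group also held Slc38a9, Flcn, Fnip1 and Fnip2, which are neither Rag GTPase nor Ragulator genes. Prr5l, Kics2 and Eif4ebp3 were below the count filter.

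Eif4ebp2 (ENSMUSG00000020091), the paralog of Eif4ebp1, had the lowest p of the list. It stood at 187, 149 and 177 CPM in WT and 41.8, 60.7 and 57.1 CPM in HSA-LR and fell by 68.9% (log2 fold change -1.69 ± 0.18, edgeR adjusted p 0.00299). The highest HSA-LR library was far below the lowest WT library. Eif4ebp3, the other paralog, was below the count filter and not tested, at 1.20, 1.06 and 0.595 CPM in WT (8.13 to 17.2 counts) and 0.285, 0 and 0.0671 CPM in HSA-LR (0 to 3.45 counts), the latter at about the floor of 3 counts. Lpin1, a phosphatidate phosphatase whose nuclear entry mTORC1 controls, had 265, 291 and 392 CPM in WT and 130, 125 and 147 CPM in HSA-LR. Its WT values were scattered, yet the lowest of them was above every HSA-LR value (-1.24 ± 0.18, edgeR adjusted p 0.00663). Eif4ebp2 and Lpin1 were the genes of the list called in all 19 alternatives.

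Ulk1, the kinase that starts autophagy and is inhibited by mTORC1, stood at 59.1, 47.6 and 50.8 CPM in WT and 27.7, 28.6 and 20.7 CPM in HSA-LR. Its groups lay apart and it fell by 51.1% (-1.03 ± 0.16, edgeR adjusted p 0.00873). Larp1, which binds mRNAs of the translation machinery, stood at 104, 90.6 and 88.1 CPM in WT and 38.3, 51.9 and 50.9 CPM in HSA-LR. It fell by 50.1% (-1.0 ± 0.16, edgeR adjusted p 0.00844), again without overlap. Ulk1 and Larp1 were each called in 18 of 19 alternatives. Eif4g1, the scaffold of the cap-binding complex (-0.63 ± 0.17, edgeR adjusted p 0.0431), and Grb10, an adaptor that damps insulin signalling (-0.63 ± 0.18, 0.0491), were called nearer the threshold and held in 7 and 6 of 19. Upstream, Rictor had 40.2, 35.0 and 31.4 CPM in WT and 20.5, 23.8 and 15 CPM in HSA-LR (-0.85 ± 0.19, edgeR adjusted p 0.0238). Castor2, a relative of the arginine sensor Castor1 (-0.95 ± 0.22, 0.0314), and Pdpk1, the kinase that activates Akt and S6 kinase (-0.54 ± 0.13, 0.0344), were lower by edgeR as well. Rictor was called in 11 of 19 alternatives, Castor2 in 12 and Pdpk1 in 8, and Castor2 was at -0.49 (edgeR adjusted p 0.145) when the share of 7SL and 7SK was a covariate. Without WT replicate 1 the list had 2 calls, without WT replicate 2, WT replicate 3 or HSA-LR replicate 3 it had 4, without HSA-LR replicate 1 10 and without HSA-LR replicate 2 16. In the same fits, in that order, all genes tested had 166, 217, 211, 185, 2003 and 3294 calls.

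**Figure D3:**
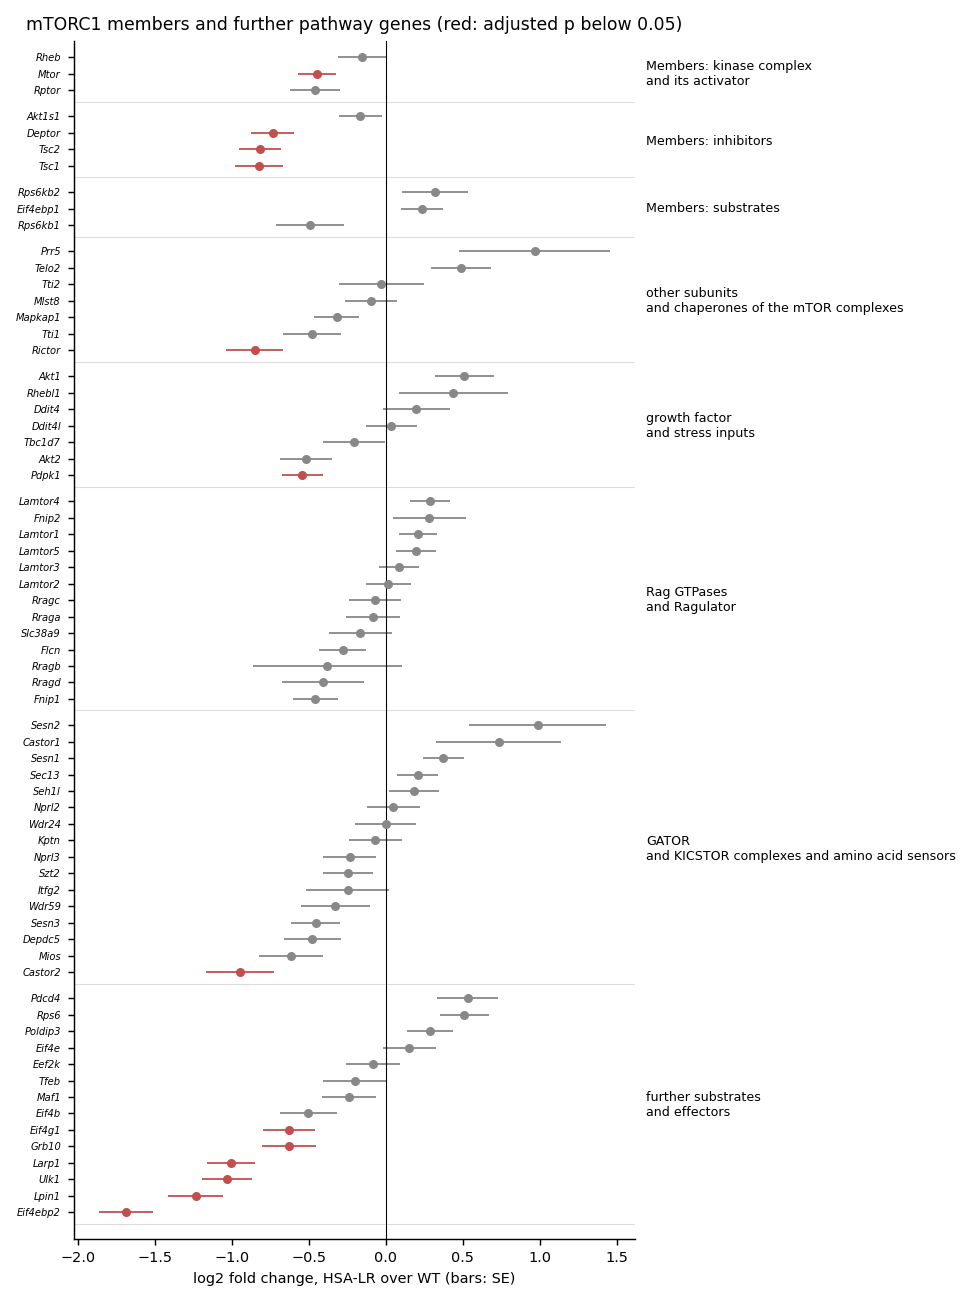
Points give the log2 fold change (HSA-LR over WT) and bars its SE for the 10 mTORC1 genes and the 57 further pathway genes tested, grouped by role, with genes at an edgeR adjusted p below 0.05 in red. All 13 red points lie left of 0, at -0.45 to -1.69.

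The mTORC1 genes differ in transcript length, and log2 fold changes in these libraries moved with length. Over 12298 tested protein coding genes in 8 classes of equal size, the median fell from 0.31 in the shortest class to -0.18 in the longest, and the share called lower rose from 0.910% to 19.6%. Mtor, Rptor, Tsc1 and Deptor lay in the longest class, Tsc2 and Rps6kb1 in class 6, Rheb in class 3, and Akt1s1, Rps6kb2 and Eif4ebp1 in class 2. Of the called pathway genes, Eif4ebp2, Larp1, Rictor, Castor2 and Pdpk1 lay in the longest class. Ulk1, Eif4g1, Grb10 and Lpin1 lay in class 7, where 13.7% of genes were called lower. Lamtor3 lay in class 2 (1.56% called lower) and the other Lamtor genes in class 1, while Rragd, Fnip1 and Fnip2 lay in the longest. The part of length in the split of calls by role was not tested. Within its own class the log2 fold change of Tsc2 was undercut by 5.6% of genes, that of Tsc1 by 9.62%, Deptor by 12.2%, Rps6kb1 by 17.2%, Akt1s1 by 20.4%, Rptor by 27.8%, Mtor by 28.8%, Rheb by 30.0%, Eif4ebp1 by 60.2% and Rps6kb2 by 66.1%. With each library's length trend removed, Tsc2 (-0.71, adjusted p 0.0267) and Deptor (-0.58, 0.0454) were called by edgeR, while Tsc1 (-0.64) had 0.0596 and Mtor (-0.23) 0.277.

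**Figure D4:**
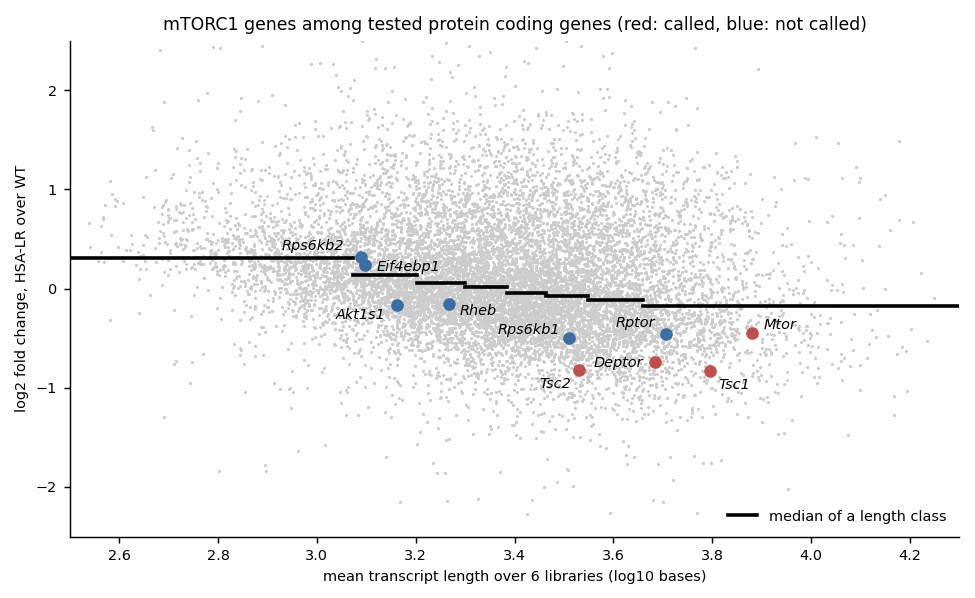
Grey points are tested protein coding genes, placed by mean transcript length (log10 axis, across) and log2 fold change of HSA-LR over WT (up), black bars are the medians of 8 length classes, and labelled points are the 10 mTORC1 genes (red: called, blue: not called). Of 12298 genes 43 lie outside the axes, and the medians fall from 0.31 to -0.18 with length.

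The abundance-weighted transcript length of a gene, deposited for each library, moves only with the mix of its transcripts. It did not overlap between groups for 3 of the 10 genes, all shorter in HSA-LR, against 10.7% of all genes tested in either direction and 6.87% shorter. Deptor had 5668, 4985 and 5111 bases in WT and 3824, 4576 and 4819 bases in HSA-LR. Eif4ebp1 went from 1302 ± 63.5 to 1206 ± 23.5 bases and Rheb from 1868 ± 16.8 to 1827 ± 13.8 bases. Each had an exact permutation p of 0.1, the smallest possible, and 0.333 after adjustment over the 10 genes. Rptor was 3223 bases in HSA-LR replicate 3 and 5233 to 5768 bases in the other libraries.

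The genes nearest to a member in profile were sought among 12297 other protein coding genes by the root mean square difference of log2(CPM + 0.5), centred on the mean of the 6 libraries. For Mtor they were Ddx21 (0.0304), Ubap2l (0.0416) and Bach1 (0.0436). For Tsc1, the member with the largest change, they were Clip1 (0.0374), Tnfaip1 (0.0440) and Kif13a (0.0511). Clip1 stood at 318 to 377 CPM in WT and 156 to 224 CPM in HSA-LR, with the same order of HSA-LR libraries as Tsc1. These 6 points share library depth and composition, so the likeness is a description.

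**Figure D5:**
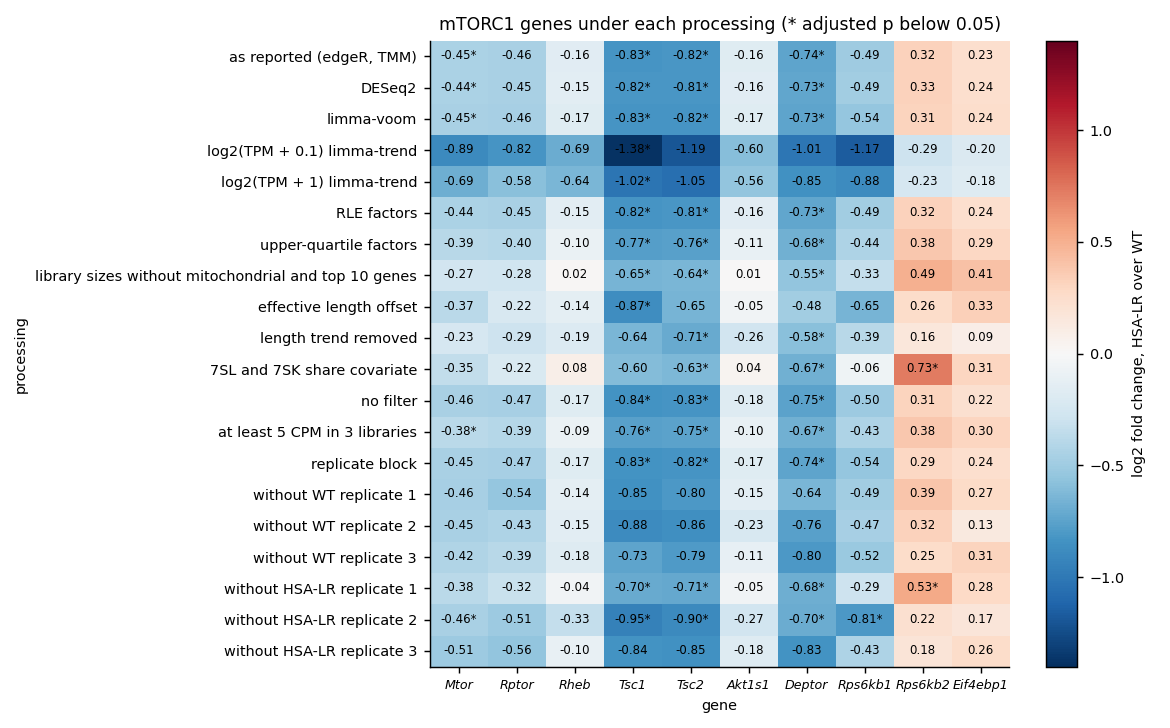
Rows are ways of processing the data and columns the 10 mTORC1 genes, with the log2 fold change (HSA-LR over WT) printed and coloured in each cell and an asterisk for an adjusted p below 0.05. Tsc1 is starred in 13 of 19 alternatives, Tsc2 and Deptor in 12 and Mtor in 4.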

How the data were processed

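Total RNA-seq libraries of quadriceps (3 WT, 3 HSA-LR) were grouped by genotype and numbered as in their titles. The authors deposited expected counts, which share out multiply matching reads by estimate. The deposited TPM values are these counts per effective length, scaled by the authors to a fixed sum per library. Other columns deposited by the authors (length and effective length) served the length checks. RSEM 1.3.1, Bowtie2 and GRCm39 are named in the submitters' processing notes, without an annotation release. Symbols came from GENCODE M39 for 53400 of 53947 genes (98.99%).

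Counts were rounded, filtered with filterByExpr, TMM-scaled and fitted by robust quasi-likelihood in edgeR 4.0.16 (limma 3.58.1, R 4.3.3) with group alone, and calls were made at 0.05 after Benjamini-Hochberg adjustment. The study's methods cover small RNA only, and the test is therefore not theirs. Common dispersion was 0.0535, or 0.231 as a coefficient of variation between libraries. At these depths 3 counts are 0.2 to 0.262 CPM, and such limits cover counting error only. The procedure was tested on simulated counts. The members and lists were chosen with earlier results of these data known. Named were all 10 members, every called gene of the further pathway list up to 14, and the 3 nearest profiles to Mtor and to the member with the largest change. Cell type markers were used as list sums.

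The 19 alternatives were limma-voom, DESeq2 1.42.0, limma-trend after log2(TPM + 0.1) or log2(TPM + 1), upper-quartile and RLE factors, library sizes that leave out mitochondrial and the 10 most abundant genes, an effective length offset, removal of each library's loess trend on length (span 0.5), a covariate for the share of 7SL and 7SK, no filter, a filter of 5 CPM in 3 libraries, a replicate block, and each of 6 libraries left out in turn. FPKM was not used.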

Additional observations from a re-analysis of the deposited data

How the results depend on the processing

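The main count of calls was 4 of the 10 mTORC1 genes, 9 of the further pathway genes and 1597 of all genes. The 10 genes had 1 call with log2(TPM + 0.1), log2(TPM + 1) or the effective length offset, and 2 with the length trend removed. The pathway list had 5 calls on either TPM scale, 4 with the length trend removed and 5 with 7SL and 7SK as a covariate. All genes had 2428 calls with DESeq2, 519 and 825 with log2(TPM + 0.1) and log2(TPM + 1), 742 with the effective length offset, 914 with the length trend removed and 935 with the covariate. Leaving out single libraries gave 0 to 5 calls among the 10 genes, 2 to 16 in the pathway list and 166 to 3294 among all genes. The shared replicate numbers were not taken as pairs. The deviations of same-numbered libraries from their group means correlated at -0.0198, -0.113 and 0.255, and not every sample correlated best with its own number. With 3 libraries per group such correlations cannot show whether the samples were paired. With the replicate block there were 3 calls among the 10 genes, 5 in the pathway list and 799 among all genes. The log2 fold change changed sign for Rheb (0.0161) and Akt1s1 (0.0109) with library sizes without mitochondrial and top genes, for the same genes (0.0791 and 0.0364) with the covariate, and for Rps6kb2 (-0.29 and -0.23) and Eif4ebp1 (-0.20 and -0.18) with log2(TPM + 0.1) and log2(TPM + 1). The log2 difference of Tsc1/Tsc2 was -0.0094 in the ratio of counts. Of all calls 36.4% were higher, against 47.9% with DESeq2, 48.2% with upper-quartile factors, 65.3% with library sizes without mitochondrial and top genes, 9.63% and 9.45% on the TPM scales and 22.6% to 25.3% without a WT library. Those library sizes moved the median of all genes by 0.18. The cause was not tested for any of these. The signs of Mtor, Rptor, Tsc1, Tsc2, Deptor and Rps6kb1 stayed negative in all 19 alternatives. With 3 libraries per group, a change as small as that of Mtor lay near the threshold.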

Other observations

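Some uncalled pathway genes are given here, chosen after their values were seen. Sesn2, a leucine sensor that restrains mTORC1 through GATOR, had 1.91, 1.85 and 2.60 CPM in WT and 2.66, 2.5 and 7.32 CPM in HSA-LR. Its log2 fold change of 0.99 ± 0.44, the highest of the list, came with HSA-LR replicate 3 apart from the other libraries and did not pass the test (edgeR adjusted p 0.163). Sesn1 (0.37 ± 0.13, edgeR adjusted p 0.0935) and Sesn3 (-0.46 ± 0.16, 0.0892), its paralogs, had values of opposite sign, each without overlap between groups. Groups did not overlap for 37.8% of all genes tested, and Sesn3 lay in the longest length class and Sesn1 in class 6. The Akt kinases also had values of opposite sign. Akt2, known for its role in insulin-driven glucose uptake, had 136, 127 and 137 CPM in WT and 70.7, 104 and 104 CPM in HSA-LR (-0.52 ± 0.17, edgeR adjusted p 0.0756). Akt1 had 17.6, 24.0 and 23.0 CPM in WT and 38.4, 24.6 and 29.1 CPM in HSA-LR (0.51 ± 0.19, edgeR adjusted p 0.107). In both pairs the difference between paralogs was not tested.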
